A study of Caenorhabditis elegans with 6 samples.

Results

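C-type lectins were taken as every row of the count table whose gene name is clec- followed by a number, with at least 1 read in any library. Of 264 such rows, 252 met this rule and 12 held no read at all, against 26609 genes with a read among the 46936 rows of the table. The rule uses gene names and detection and no difference between the groups. C-type lectins are proteins built around a C-type lectin-like domain, a compact fold which in its classical form binds sugars with the help of calcium. The family is very large in *Caenorhabditis elegans*, most of its proteins carry a secretion signal, and in many of them the residues that bind sugar are not conserved. Many clec genes are expressed in the intestine and change when animals meet pathogenic bacteria, which is why the family is often read as a part of the innate immune response of the worm.

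Both groups were wild-type N2 animals grown on *E. coli* OP50 at 20 °C and collected as whole animals on day 2 of adulthood. From the first larval stage on, one group grew on plates with a milk protein powder that contains milk fat globule membrane (Protein powder 2 in the labels, MProPow2 here), and the other on plates that received water. All animals of both groups were also moved at the L4 stage to plates with 5-fluorouracil, an inhibitor of DNA synthesis that stops the production of progeny. Each group has 3 libraries of poly-A selected RNA, described as biological replicates, and each library pools many animals. The comparison asks how the powder changes the expression of these genes in young adults.

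The 6 libraries held 28859395 to 37501098 counts. MProPow2 replicate 3 stood apart from the other libraries of its group. Of 12120 genes tested with a mean of at least 1 CPM (read counts relative to library size, scaled for composition), 437 spanned at least 1 log2 unit among the MProPow2 libraries, and the library farthest from the middle value was replicate 1 in 14 of these, replicate 2 in 31 and replicate 3 in the rest. In control libraries 90 genes spanned as much. All 12 markers of the intestine and all 10 markers of neurons and of muscle were measured, as were the 12 of germline and oocytes. Of 10 sperm genes, 8 stayed under 1 CPM in every library. Since RNA came from whole animals, fewer cells of a type and less RNA per cell cannot be told apart.

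A few members make most of the family's RNA. On the FPKM scale, which corrects for gene length and so allows levels to be set side by side, 9 members had a mean of at least 100, 39 of at least 10, 66 of at least 1, and 186 were under 1. The highest was clec-63 with a mean of 927 FPKM over all libraries. It was followed by clec-87 with 761, clec-50 with 310, clec-150 with 289, clec-88 with 252, clec-91 with 222, clec-1 with 192, clec-65 with 131, clec-85 with 117 and clec-47 with 88.1 FPKM. The order of the first pair depended on the group. In control replicates 1, 2 and 3, clec-63 was at 1282, 1247 and 1357 FPKM and clec-87 at 916, 815 and 707 FPKM, so that clec-63 led in each. In MProPow2 replicates 1, 2 and 3, clec-63 was at 466, 695 and 519 FPKM and clec-87 at 661, 608 and 859 FPKM. There clec-87 led in replicates 1 and 3, and clec-63 only in replicate 2. In control libraries clec-50 (303 to 329 FPKM) and clec-150 (350 to 405 FPKM) did not overlap. In MProPow2 libraries their values overlapped, with 193 to 440 and 181 to 250 FPKM.

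Reads from the family as a whole were fewer on MProPow2. Summed over the 252 members, control replicates 1, 2 and 3 held 6030, 5900 and 6112 CPM. MProPow2 replicates 1, 2 and 3 held 3878, 4750 and 4487 CPM. The groups did not overlap, and the mean went from 6014 ± 107 CPM (SD, n = 3) to 4372 ± 448 CPM (SD, n = 3), which is 72.7% of control. Much of this lies in clec-63, which alone took 27.9% to 29.5% of the clec reads in control libraries and 15.1% to 19.6% in MProPow2 libraries. Without clec-63, the sum went from 4301 ± 44.6 CPM to 3634 ± 313 CPM (SD, n = 3 each), or 84.5% of control. The sum over the members that were not called, which the calls themselves set apart, was 3333 ± 14.4 CPM in control and 3083 ± 264 CPM in MProPow2 (SD, n = 3 each), 92.5% of control, and the highest MProPow2 library (3297 CPM) lay close to the lowest control library (3317 CPM). The sums are descriptions and carry no test.

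Of the 252 members, 99 had enough reads to be tested (filterByExpr of edgeR) and 153 did not. At an adjusted p under 0.05 over all genes tested, 7 were lower and 3 were higher on MProPow2. These are 7.07% and 3.03% of the members tested, against a background of 1.47% and 1.53% over all 14534 genes tested. At an unadjusted p under 0.05, 24 members were lower and 16 higher, against 7.75% and 9.13% of all genes. In 28 members (28.3% of those tested) the CPM of every MProPow2 library lay below that of every control library, and in 17 (17.2%) it lay above. Over all genes these shares were 12.3% and 11.1%. The median log2 fold change of the tested members was -0.10, and that of all genes tested was -0.013. DESeq2, the tool of the study, was also run on the same genes at an adjusted p under 0.05. It called 10 of the 99 members lower and 4 higher, against 2.45% and 2.66% of all genes tested. The study itself used a p-value under 0.05, so these are not its own calls. No called member had passed the filter on low counts through 1 group alone, while 3 of the members tested reached its level of 0.321 CPM in all MProPow2 libraries and in no control library.

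**Figure D1:**
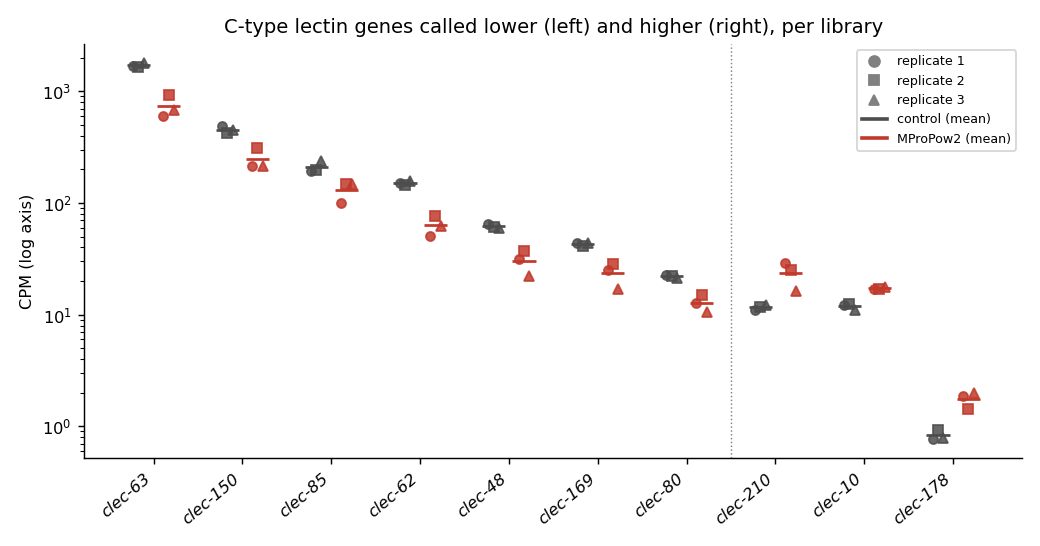
CPM (log axis) of the 10 called C-type lectin genes in each library, control in grey and MProPow2 in red, with a marker per replicate and a bar at the group mean (n = 3). In all 10 genes the values of the groups are separate, and clec-63 lies highest in both groups.

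The 7 members called lower include the most abundant one. clec-63 (NCBI Gene 174927) was at 1691, 1648 and 1801 CPM in control replicates 1, 2 and 3 and at 606, 931 and 678 CPM in MProPow2 replicates 1, 2 and 3. Every MProPow2 value was thus well below the lowest control value. It fell to 43.1% of the control mean, with a log2 fold change of -1.22 ± 0.16 (SE; adjusted p = 0.0048, edgeR). Its neighbour clec-62 (174926) was at 152, 146 and 157 CPM in control and at 50.8, 77.0 and 62.4 CPM in MProPow2. In both genes MProPow2 replicate 2 was the highest of its group and replicate 1 the lowest. clec-62 had the smallest p of the family, at a log2 fold change of -1.26 ± 0.13 (SE; adjusted p = 0.0019, edgeR), and it is a gene that the study picked from these libraries for qRT-PCR.

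clec-150 (175261) was second to clec-63 in abundance among these, at 490, 424 and 448 CPM in control and 216, 308 and 217 CPM in MProPow2. The groups are separated by more than 100 CPM. The log2 fold change was -0.88 ± 0.15 (SE; adjusted p = 0.017, edgeR). For clec-85 (177068), which is known as a target of the p38 kinase PMK-1 in the intestine, control libraries held 196, 196 and 240 CPM and MProPow2 libraries 101, 147 and 147 CPM. Here the fall was smaller, with a log2 fold change of -0.68 ± 0.15 (SE; adjusted p = 0.047, edgeR), and the call is the weakest of the 10 by adjusted p. The genes Y54G2A.40 and Y54G2A.49 are annotated over the span of clec-85, and with means of at most 2.26 CPM they hold few reads.

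Another 3 members of middle abundance fell by similar steps. clec-48 (180188) went from 65.5, 60.6 and 59.8 CPM in control to 31.4, 36.8 and 22.3 CPM in MProPow2, a log2 fold change of -1.04 (adjusted p = 0.011, edgeR). clec-169 (3565430) went from 44.2, 41.3 and 44.0 CPM to 25.01, 28.5 and 17.1 CPM, and clec-80 (3565458) from 22.9, 22.3 and 21.3 CPM to 12.7, 15.1 and 10.7 CPM. In all 3 the control libraries lay close together and MProPow2 replicate 3 was the lowest library. Their log2 fold changes were -0.87 for clec-169 (adjusted p = 0.025, edgeR) and -0.79 for clec-80 (adjusted p = 0.021, edgeR).

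The 3 members called higher were clec-210, clec-10 and clec-178. clec-210 (190659) was at 11.1, 11.7 and 12.1 CPM in control and 29.1, 25.3 and 16.2 CPM in MProPow2. The control values are tight, while MProPow2 replicate 3 lies nearer to control than the other 2. Its log2 fold change was 1.02 ± 0.19 (SE; adjusted p = 0.027, edgeR). clec-10 (173430) was at 12.1, 12.6 and 10.95 CPM in control and 16.9, 16.8 and 17.8 CPM in MProPow2, and the MProPow2 libraries lay close together. It rose by 0.53 on the log2 scale (standard error 0.12, adjusted p = 0.044, edgeR). clec-178 (177344) rose from 0.77, 0.93 and 0.79 CPM to 1.86, 1.43 and 2.00 CPM. It had 22 to 35 reads in a control library and 43 to 60 in an MProPow2 library (log2 fold change 1.08 ± 0.24 SE, adjusted p = 0.045, edgeR). The transcription factor gene skn-1 is annotated over the span of clec-178 and is far more abundant, at 171 CPM in control and 170 CPM in MProPow2. The strand setting of the counting is not given in the sources used here, and only gene spans were compared, not exons. Whether reads of skn-1 were counted for clec-178 was not tested.

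Most of the calls did not hold in every fit with 1 library left out, and most of these fits called fewer genes in general. Over all genes, the 437 calls became 153, 72 and 99 without control replicates 1, 2 and 3. They became 117, 391 and 1044 without MProPow2 replicates 1, 2 and 3. When each of the 6 libraries was left out in turn, clec-62 and clec-63 were called every time. Leaving out control replicate 2, control replicate 3 or MProPow2 replicate 1 ended the calls of clec-48 and clec-150, with adjusted p from 0.052 to 0.0725 (edgeR). The other 6 were also lost without control replicate 1, and clec-10, clec-85 and clec-210 without MProPow2 replicate 2. No library changed the direction of any of the 10. Without MProPow2 replicate 3, the library that stands apart, 15 members were lower and 11 higher of 104 tested, against 2.80% and 4.21% of all genes. All 10 were among these calls.

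**Figure D2:**
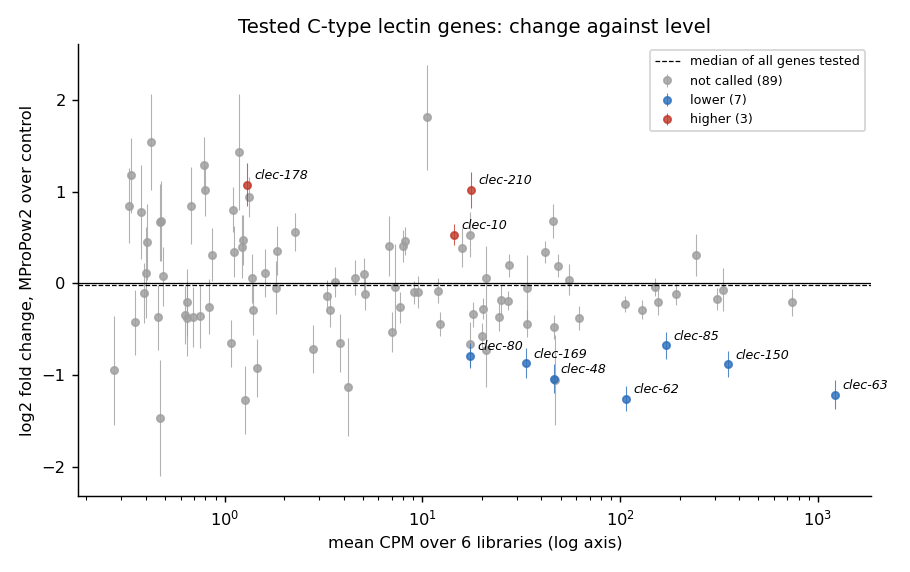
Log2 fold change (MProPow2 over control, with standard error) of the 99 tested members against their mean CPM on a log axis, with the median of all genes tested at -0.013 as a dashed line. Of the 13 members of at least 100 CPM, 12 are below 0.

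The direction of the members differed between ranges of abundance. Of 13 tested members with a mean of at least 100 CPM, 12 had a lower fitted value on MProPow2, 4 of them were called, and the median log2 fold change was -0.21. All 2210 genes of that range had a median of -0.039, with 64.8% lower and 2.81% called lower. Among 29 members from 10 to under 100 CPM, 18 were lower, with a median of -0.19 against -0.054 for all genes of the range. In the 33 members from 1 to under 10 CPM, 16 were lower and 17 higher, with a median of 0.014 against 0.058. The 24 tested members under 1 CPM had a median of 0.098 against 0.26. Thus in each range the median of the members lay below that of all genes. The 1 abundant member with a higher fitted value was clec-266, whose groups overlap (156 to 256 CPM in control and 183 to 349 CPM in MProPow2).

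Among the most abundant members that were not called, clec-87 was at 895, 797 and 695 CPM in control and 636, 603 and 831 CPM in MProPow2. The groups overlap through MProPow2 replicate 3, and the log2 fold change was -0.21 ± 0.15 (SE; adjusted p = 0.546, edgeR). The same library was also the highest of its group for clec-88 and clec-91, with log2 fold changes of -0.17 and -0.12 (adjusted p = 0.520 and 0.670, edgeR). clec-87 shares its span with iars-2, clec-88 with ctsa-4.1 and clec-91 with ZK858.8, and the partners had at most 103 CPM. clec-1 was nearly level, at 141 to 170 CPM in control and 139 to 155 CPM in MProPow2 (log2 fold change -0.039, standard error 0.096).

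Many clec genes lie side by side in the genome. By the gene order of RefSeq (assembly WBcel235, used for order only), 177 of the 264 rows fall into 51 groups of 2 or more genes with at most 3 other genes between neighbours, the largest holding 15. In the group of clec-62, clec-63, clec-64, clec-65 and clec-66 on chromosome II, only the first pair was called. clec-65 was at 158, 166 and 175 CPM in control and 110, 161 and 162 CPM in MProPow2, and its groups overlap. Its log2 fold change was -0.20 ± 0.14 (SE; adjusted p = 0.527, edgeR), while that of clec-66 was 0.041 (standard error 0.17) and clec-64 had at most 6 reads in a library.

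Ratios of neighbours within a library do not depend on the scaling between libraries. As they set called genes over neighbours that were not called, they describe the calls and add no support to them. clec-63 was 10.7, 9.94 and 10.3 times as high as clec-65 in CPM in control replicates 1, 2 and 3, and 5.49, 5.79 and 4.17 times as high in MProPow2 replicates 1, 2 and 3. The mean log2 ratio of the pair differed by -1.01 in MProPow2. The ratios of clec-62 to clec-65 and of clec-62 and clec-63 to clec-66 also did not overlap between the groups. clec-62 was at 0.0869 to 0.0899 of clec-63 in control and at 0.0828 to 0.0921 in MProPow2, and these ranges overlap.

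**Figure D3:**
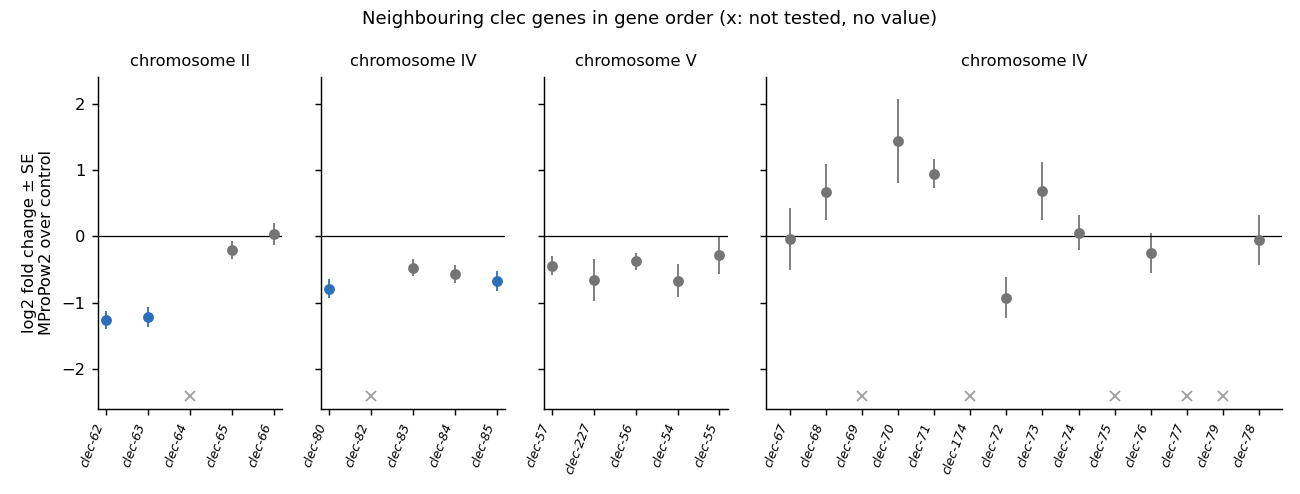
Log2 fold change with standard error (MProPow2 over control) of the clec genes in 4 groups of neighbours, in gene order from left to right. Blue points were called lower, grey points were not called, and crosses mark genes with too few reads to be tested. The tested genes of the middle groups (clec-80 to clec-85 and clec-57 to clec-55) all lie below 0, while the first and the last groups are mixed. The group of the called gene clec-169, which is also mixed, is not shown.

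On chromosome IV, clec-80, clec-82, clec-83, clec-84 and clec-85 form such a group, and its 4 tested genes all lay lower in every MProPow2 library than in any control library. Of these, clec-80 and clec-85 were called. clec-84 was at 24.5, 24.9 and 22.5 CPM in control and 13.6, 15.955 and 18.9 CPM in MProPow2 (log2 fold change -0.57, adjusted p = 0.058, edgeR). clec-83 was at 52.1, 54.1 and 55.5 CPM and at 35.7, 47.7 and 33.1 CPM (log2 fold change -0.47, adjusted p = 0.099, edgeR). Both were called by DESeq2 on the same genes. Another group with a called member, the 6 genes from clec-165 to clec-170 on chromosome IV, was mixed in its 4 tested genes. Beside clec-169 at -0.87, clec-166 had a log2 fold change of -0.29, clec-170 of 0.36 and clec-165 of 1.30. Of these only clec-169 was called, and clec-165 had an adjusted p of 0.054 (edgeR). A group on chromosome V, clec-57, clec-227, clec-56, clec-54 and clec-55, had log2 fold changes from -0.67 to -0.29 in all 5 genes. With edgeR 0 of these were called and 3 (clec-54, clec-56 and clec-57) had an unadjusted p under 0.05. These 3 were called by edgeR without the filter on low counts, and clec-54 also by DESeq2 on every gene with a read. Those fits called 1226 and 729 genes, against 437 by edgeR with the filter. The calls without the filter also held clec-47 and clec-52, in which MProPow2 replicate 3 lay far from the other libraries of its group. The large group on chromosome IV that runs from clec-67 to clec-78 was mixed, with values from -0.92 (clec-72) to 1.43 (clec-70) in 9 tested genes of 14. With edgeR 0 of the 9 were called and 3 (clec-70, clec-71 and clec-72) had an unadjusted p under 0.05. Without the filter these 3 were called, and without MProPow2 replicate 3 clec-67, clec-70 and clec-71 were. Leaving out that library gave 1044 calls over all genes. The genes clec-54, clec-55, clec-56, clec-57, clec-66, clec-72, clec-78, clec-82, clec-83, clec-84, clec-165, clec-166, clec-170 and clec-227 were named after their values were seen.

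Of the members with a published role, clec-62 and clec-85 were called and the others were not. clec-41, which with clec-4 and clec-42 has been studied in the defence against *Bacillus thuringiensis*, was at 137, 156 and 130 CPM in control and 104, 129 and 114 CPM in MProPow2. The groups are separate, though only just, and the log2 fold change was -0.29 (adjusted p = 0.200, edgeR). clec-4 had a log2 fold change of 0.39 with overlapping groups (adjusted p = 0.406, edgeR), and clec-42 had 1 to 13 reads per library. Of the lectins that bind *Serratia marcescens*, clec-49 was at 24.7, 29.0 and 28.4 CPM in control and 17.3, 20.4 and 26.2 CPM in MProPow2 (log2 fold change -0.37, adjusted p = 0.266, edgeR), and clec-39 had 1 to 11 reads per library.

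Of the genes induced by *Staphylococcus aureus*, clec-60, a widely used reporter of that response, had 2 to 9 reads per library, too few for a test. clec-71 went from 0.87, 1.04 and 0.79 CPM in control to 1.74, 1.73 and 1.77 CPM in MProPow2, on 25 to 56 reads. These groups do not overlap, and the gene was not called (log2 fold change 0.94 ± 0.22 SE, adjusted p = 0.052, edgeR). With RLE or upper-quartile scaling it was called (adjusted p = 0.0467 and 0.0496, edgeR). clec-86 had 25 to 59 reads per library, a log2 fold change of 0.40 and overlapping groups, and it shares its span with alh-10. That gene is more abundant, at 14.4 CPM in control and 21.2 CPM in MProPow2 (log2 fold change 0.55, adjusted p = 0.060, edgeR). clec-38, which acts on the netrin receptor UNC-40 in axon growth, had 3 to 9 reads per library and was not tested.

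Of 75 tested members with a mean of at least 1 CPM, 14 (18.7%) spanned at least 1 log2 unit among the MProPow2 libraries, where 3.61% of all such genes did. None of the 75 spanned as much among control libraries. In 12 of the 14, replicate 3 was the library farthest from the middle value. The widest was clec-47, at 59.1, 62.1 and 67.8 CPM in control and at 39.8, 44.8 and 6.44 CPM in MProPow2 replicates 1, 2 and 3. All MProPow2 values lie below control, but replicate 3 is far below the others (log2 fold change -1.05 ± 0.49 SE, adjusted p = 0.325, edgeR). Without that library the value was -0.58 and the gene was called (adjusted p = 0.00248, edgeR).

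clec-3 had the same shape, with 4.98, 6.64 and 5.81 CPM in control and 3.85, 3.73 and 0.37 CPM in MProPow2. Replicate 3 there held 11 reads. clec-3 shares its span with C41H7.2, which had means of 3.57 CPM in control and 4.48 CPM in MProPow2. In the other direction, clec-52, a gene induced by *S. aureus*, was at 4.63, 5.47 and 3.84 CPM in control and 6.73, 6.99 and 35.5 CPM in MProPow2. The groups do not overlap, and the fitted log2 fold change of 1.81 ± 0.57 (SE; adjusted p = 0.140, edgeR) became 0.56 without replicate 3.

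In clec-67 and clec-70 replicate 3 lay on the other side of control from replicates 1 and 2. clec-67 was at 6.92 to 8.05 CPM in control and at 3.17, 3.96 and 14.5 CPM in MProPow2. Its log2 fold change was -0.044 with all libraries and -1.06 without replicate 3, where it was called (adjusted p = 0.00107, edgeR). clec-70 was at 0.49 to 0.73 CPM in control and at 2.73, 2.23 and 0.23 CPM in MProPow2, with 1.43 and 1.94 for the same 2 fits and a call only in the second (adjusted p = 0.000371, edgeR). clec-50, among the most abundant members, was likewise at 203, 301 and 465 CPM in MProPow2 against 325 to 351 CPM in control. Its log2 fold change of -0.067 was 0.18 without MProPow2 replicate 1 and -0.43 without replicate 3, and it was called in none of these.

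**Figure D4:**
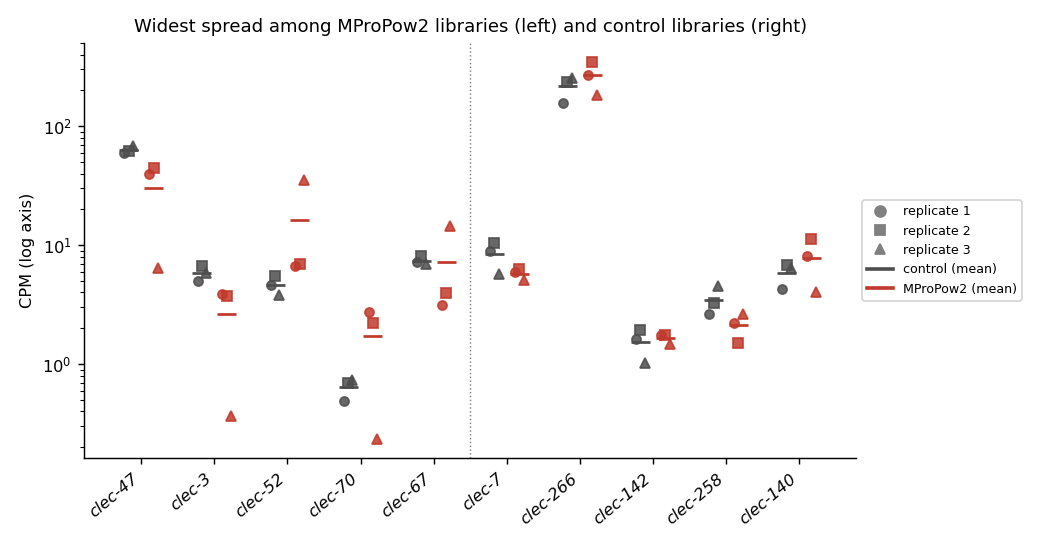
CPM (log axis) per library of the 5 tested members with the widest spread among MProPow2 libraries and, right of the dotted line, the 5 with the widest spread among control libraries. Grey is control, red is MProPow2, bars are group means (n = 3). MProPow2 replicate 3 (triangle) is the separate value in each of the 5 genes on the left.

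The members with the widest spread among control libraries were clec-7, clec-266, clec-142, clec-258 and clec-140. Their spans were narrower, from 0.62 to 0.82 log2 units. clec-7 was at 8.94, 10.4 and 5.68 CPM in control and 5.14 to 6.26 CPM in MProPow2, and the groups overlap through control replicate 3. With edgeR and all libraries these 5 were not called, while without MProPow2 replicate 3 clec-258 was called lower and clec-140 higher. Their log2 fold changes ran from -0.71 (clec-258) to 0.41 (clec-140). clec-266 shares its span with kqt-1, and clec-140 with T05A7.3 and hmg-11.

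The 153 members that were not tested had 1 to 66 reads in all 6 libraries together, with a median of 10. Of these, 21 had reads only in MProPow2 libraries, 8 only in control libraries and 124 in both. Shares of all untested genes with a read were larger, at 24.7% in MProPow2 only and 11.8% in control only, against 13.7% and 5.23% of the members. Control libraries held at least 1 read of 189 to 199 members and MProPow2 libraries of 210 to 214. Over all genes these numbers were 20219 to 21175 and 21798 to 22162, so that more genes were seen in MProPow2 libraries in general. Of the 252 members, 21 are annotated as pseudogenes, and 1 of these was tested.

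Several signalling routes control clec genes, among them the p38 cascade of tir-1, nsy-1, sek-1 and pmk-1, the TGF-β ligand dbl-1 with its Smads, insulin signalling through daf-2 and daf-16, and the intestinal GATA factors elt-2 and elt-7. Of 24 such regulators, 23 were tested, 1 was called lower and 0 higher at adjusted p, and 4 others had an unadjusted p under 0.05. The median log2 fold change was 0.0034. The called gene was pqm-1, a zinc finger transcription factor that acts opposite to daf-16, which went from 35.4 ± 1.18 CPM to 20.996 ± 4.09 CPM (SD, n = 3 each; log2 fold change -0.75 ± 0.14 SE, adjusted p = 0.0236, edgeR). Leaving out control replicate 2, control replicate 3 or MProPow2 replicate 1 ended this call. The p38 cascade was not called at any step, with log2 fold changes of 0.49 for tir-1, 0.044 for nsy-1, 0.23 for sek-1 and 0.0034 for pmk-1.

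All 12 markers of the intestine had a lower fitted value on MProPow2, with a median log2 fold change of -0.32 and a range from -0.70 (nhx-2) to -0.017 (eps-8). Only nhx-2, a sodium-proton exchanger, was called (adjusted p = 0.0447, edgeR). The summed CPM of the list was 1900 to 1953 in control and 1425 to 1774 in MProPow2. The falls of clec-62, clec-63, clec-48, clec-150, clec-169 and clec-80, from -1.26 to -0.79, were each larger than that of any of the 12 markers, while that of clec-85 was within their range. As these members were picked by their calls, larger falls are built into this comparison. Over all 99 tested members the median was -0.10, a smaller fall than the -0.32 of the marker list. The 2 sets differ in abundance, as the lowest marker, elt-7, was at 11.1 CPM in control. Of the members, 33 lay from 1 to under 10 CPM and 24 under 1 CPM. Members from 10 to under 100 CPM and of at least 100 CPM had medians of -0.19 and -0.21. Of 10 muscle markers, lev-11, mup-2 and tnt-2 were called lower, and the list summed to 887 to 981 CPM in control and 705 to 777 CPM in MProPow2. No marker of neurons, germline and oocytes, sperm or hypodermis was called, with list medians of -0.045, -0.065, 0.38 and -0.25 (the sperm list with 4 of 10 tested). The part of these shifts in the clec results was not tested.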

How the data were processed

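The authors mapped paired-end reads of 6 whole-animal libraries with HISAT2 and counted them per gene with FeatureCounts. They deposited raw counts and, in a second table, FPKM values. Within a gene the deposited FPKM are proportional to the counts up to a factor per library (8020 genes checked). No build, annotation or strand setting is given in the sources read for this work, and no coordinates or sequences are printed. All 252 members were matched by identifier to RefSeq for gene order, overlaps and pseudogenes.

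Counts were tested with edgeR 4.0.16 (R 4.3.3): filterByExpr with a minimum count of 10, TMM factors, the quasi-likelihood F test of MProPow2 against control with no covariate, and Benjamini-Hochberg adjustment over 14534 genes, at a threshold of 0.05. Standard errors are the log2 fold change over the root of F. CPM use TMM-scaled totals. Precision is set by depth and by the spread of 3 replicates, and the common biological coefficient of variation was 13.9%. Chi-square per degree of freedom between replicates was 13.6 to 51.7, above counting noise. Named are the called members, the 10 of highest FPKM, the 5 with the widest spread in each group, 14 with a published role and neighbours of called members, and others where stated. The members and gene lists were chosen with earlier results of these data known. Alternatives were RLE and upper-quartile scaling, no filter or 10 counts in every library, DESeq2 1.42.0, a replicate block, each library left out, and limma 3.58.1 on log2(FPKM + 1) or log2(FPKM + 0.1). The main edgeR fit, DESeq2 and limma on log2(CPM + 1) were run on simulated counts, and the other settings were not.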

Additional observations from a re-analysis of the deposited data

How the results depend on the processing

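Calls of single members depended on the setting more than their direction did. clec-62 was called in 14 of 16 alternatives and clec-63 in 13, both being lost only with limma, and no called member changed direction. The calls of clec-48, clec-150, clec-80 and clec-169 were lost in 6 to 8 alternatives, and those of clec-10, clec-178 and clec-210 in 9. clec-85 was lost in 10, among them upper-quartile scaling and 10 counts in every library. DESeq2 on every gene with a read ended the call of clec-178. With edgeR, 437 genes, 3 higher and 7 lower clec genes, 1 regulator and 4 tissue markers were called. RLE scaling gave 5 higher clec genes. No filter gave 1226 genes, 11 higher and 20 lower clec genes, 2 regulators and 10 markers. DESeq2 gave 742 genes and 7 markers on the filtered genes, and 729 genes, 11 lower clec genes and 8 markers on every gene with a read. The labels do not say whether the replicate numbers pair the samples. Deviations of same-numbered libraries correlated at -0.048, 0.096 and -0.12, and those of other pairs at -0.20 to 0.19. With 3 libraries per group these values cannot settle the pairing. A replicate block gave 192 genes, 0 higher and 6 lower clec genes and 1 marker. In either direction, 38 of its 99 tested members had an unadjusted p under 0.05 (edgeR). With limma on log2(FPKM + 1), log2(FPKM + 0.1) and log2(FPKM + 1) without a filter, 81, 139 and 72 genes were called. Of these, 0 were clec genes called higher, 1, 1 and 0 were clec genes called lower, and 0 were regulators or markers. In either direction, 37 of 147, 35 of 147 and 40 of 252 tested members had an unadjusted p under 0.05 (limma). The shares of all genes at unadjusted p were not counted for the replicate block and the limma fits. The clec gene called was clec-62 with log2(FPKM + 1). With log2(FPKM + 0.1) it was clec-17, which the main fit did not test, so that none of the 10 main calls held there.

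Leaving out single libraries gave 72 to 1044 genes, 0 to 11 clec genes higher and 2 to 15 lower, 0 to 2 regulators and 0 to 7 markers, with 72 genes without control replicate 2 and 1044 without MProPow2 replicate 3. The median log2 fold change of the clec genes was -0.032 under upper-quartile scaling, where that of all genes was 0.053, and -0.036 with limma on log2(FPKM + 1). Over all 252 members it was 0.082 without a filter in edgeR, 0.084 in DESeq2 and 0.013 with limma. The medians of all genes in these fits were 0.060, 0.065 and 0.021. With every member kept, the clec median thus lay above that of all genes in edgeR and DESeq2, and below it with limma. The summed clec CPM in MProPow2 was 0.727 of control and moved by less than the replicate spread. Of the named and tested members, for which alone each alternative was followed gene by gene, 4 that were not called changed direction. With upper-quartile scaling the log2 fold change was 0.026 for clec-1 and 0.00998 for clec-67. With single libraries left out it ran from -0.43 to 0.18 for clec-50, from -0.098 to 0.054 for clec-1, from -1.06 to 0.31 for clec-67 and from -0.098 to 0.34 for clec-142. The cause was not tested.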
